A study of Mus musculus with 12 samples.

Results

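The immunity-related GTPases (IRG proteins) are interferon-inducible GTPases, and their transcripts were followed here in irradiated and control cells of 2 mouse tumour lines. The family was taken by gene symbol from the table of counts per gene. It comprised Igtp, Irgm1, Irgm2, Iigp1, Tgtp1, Tgtp2 and Ifi47, which are 7 of the 57180 rows in that table. All 7 passed the filter on low counts and were among the 14362 genes tested. The filter was run over all groups together, and Iigp1 and Tgtp1 passed it through the irradiated libraries. KPC is a mouse pancreatic ductal adenocarcinoma line and MB49 is a mouse bladder cancer line. Both carry the genotype label WT and were grown in the same medium. The groups were KPC cells given 8 Gy of radiation, control KPC cells, MB49 cells given 8 Gy, and control MB49 cells, with 3 libraries each. Irradiated cells were cultured for 48 h, and the culture time of the controls is not given, so dose and any difference in culture time cannot be told apart. The study's design text also speaks of cells made senescent, but the library labels give only control or 8 Gy. The libraries of a group are not stated to be separate cultures, so the p-values below measure the spread between libraries, which may be technical. Each tumour type is represented by a single line.

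IRG proteins belong to the cell-autonomous defence of mouse cells against parasites and bacteria that live inside vacuoles. The regulatory members Irgm1, Irgm2 and Igtp (also called Irgm3) carry a methionine in the first nucleotide-binding motif, where most GTPases have a lysine, and are known as the GMS group. They sit on host membranes and hold the effector members in the inactive, GDP-bound state. The effectors, known as the GKS group, are Iigp1 (Irga6), Tgtp1 and Tgtp2 (both Irgb6) and Ifi47 (Irgd). They load onto the membrane of the pathogen's vacuole with the help of the ATG8 conjugation machinery and the guanylate-binding proteins, and break it open. Transcription of the family is known to follow interferon-gamma at GAS elements, and type I interferon and interferon regulatory factors at ISRE elements.

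The promoters of the family are shown because its members moved together. Windows of 250 bases before to 50 bases after the annotated start were taken from RefSeq (build GRCm38.p6), which held one for 6 of the 7 members. Each is printed 5′ to 3′ on the strand of its gene, and capitals mark matches to a GAS-type motif, TTCNNNGAA, or an ISRE-type motif, GAAANNGAAA. Igtp lies at chr11:58199306-58199605 (plus strand), Irgm2 at chr11:58214727-58215026 (plus), Tgtp1 at chr11:48992197-48992496 (minus), Tgtp2 at chr11:49064163-49064462 (minus) and Irgm1 at chr11:48871371-48871670 (minus).
Igtp: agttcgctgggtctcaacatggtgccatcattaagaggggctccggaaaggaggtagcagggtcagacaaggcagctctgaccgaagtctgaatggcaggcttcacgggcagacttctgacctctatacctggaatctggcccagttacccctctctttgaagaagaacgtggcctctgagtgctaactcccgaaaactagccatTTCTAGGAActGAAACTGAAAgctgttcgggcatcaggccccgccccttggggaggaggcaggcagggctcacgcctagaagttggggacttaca
Irgm2: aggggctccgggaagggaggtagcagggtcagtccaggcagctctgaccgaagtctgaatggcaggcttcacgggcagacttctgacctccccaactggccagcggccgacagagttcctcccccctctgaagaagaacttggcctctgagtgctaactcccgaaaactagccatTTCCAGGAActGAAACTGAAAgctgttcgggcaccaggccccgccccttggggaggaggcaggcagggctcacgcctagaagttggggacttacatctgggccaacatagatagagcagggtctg
Tgtp1: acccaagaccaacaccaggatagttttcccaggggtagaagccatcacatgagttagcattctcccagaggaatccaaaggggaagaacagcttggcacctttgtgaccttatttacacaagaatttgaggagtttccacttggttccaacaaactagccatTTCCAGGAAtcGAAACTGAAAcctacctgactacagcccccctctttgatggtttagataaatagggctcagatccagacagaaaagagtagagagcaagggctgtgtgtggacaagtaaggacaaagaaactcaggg
Tgtp2: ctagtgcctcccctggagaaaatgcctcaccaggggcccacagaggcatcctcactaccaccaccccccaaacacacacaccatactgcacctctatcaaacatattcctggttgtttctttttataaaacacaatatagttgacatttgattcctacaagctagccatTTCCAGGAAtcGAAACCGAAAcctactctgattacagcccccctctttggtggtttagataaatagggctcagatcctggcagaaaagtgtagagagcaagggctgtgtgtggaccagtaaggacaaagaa
Irgm1: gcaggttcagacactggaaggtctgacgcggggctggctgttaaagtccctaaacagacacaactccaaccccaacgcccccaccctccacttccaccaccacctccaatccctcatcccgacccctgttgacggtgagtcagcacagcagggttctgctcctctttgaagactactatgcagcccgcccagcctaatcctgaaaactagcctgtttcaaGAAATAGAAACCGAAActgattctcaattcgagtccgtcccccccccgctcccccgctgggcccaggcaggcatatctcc

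Both strands were searched. In Igtp, Irgm2, Tgtp1 and Tgtp2 a GAS-type match was followed, after a gap of a pair of bases, by an ISRE-type match on the strand of the gene. The pair began 45 bases before the start in Igtp, 75 in Irgm2, 88 in Tgtp1 and 81 in Tgtp2. Irgm1 held 2 overlapping ISRE-type matches, beginning 30 and 24 bases before its start, and no GAS-type match. The window of Ifi47, chr11:49076337-49076636 (plus), held neither motif. Among all 32851 promoter windows of this length, 3.44% held the ISRE-type motif, 8.3% the GAS-type motif and 0.454% both. The arrangement as a whole, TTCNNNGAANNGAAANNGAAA, was composed after the members' sequences had been seen, and 5 windows held it, which is 0.0152%. The fifth belongs to Gm12185, a predicted gene whose model overlaps that of Tgtp1 on the same strand. Aligned over the 300 bases, the windows of Igtp and Irgm2 were 82.3% identical and those of Tgtp1 and Tgtp2 74.7%, against 55.3 to 62.7% for the other pairs among the 6. A match is a stretch of letters and was not tested as a binding site.

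**Figure D1:**
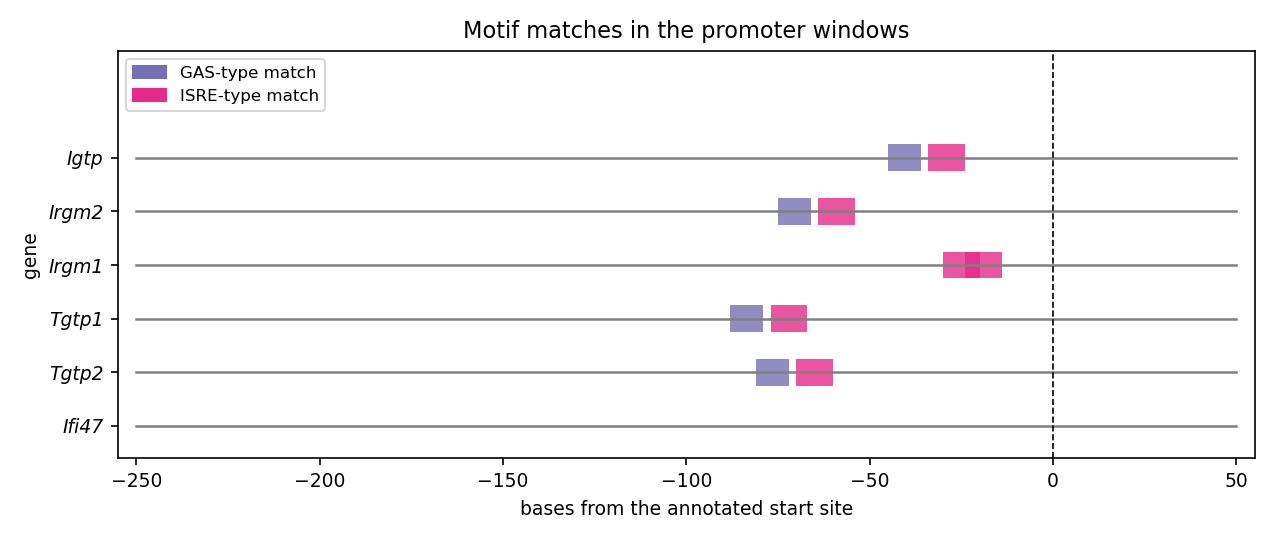
Positions of GAS-type (violet) and ISRE-type (pink) matches in the 6 promoter windows, in bases from the annotated start site (dashed line). Both matches lie side by side in 4 windows, within 88 bases of the start, while Irgm1 has 2 overlapping ISRE-type matches and Ifi47 has none.

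Library totals ran from 19006015 to 26337950 counts, with 12201 to 13024 genes at 10 counts or more. Libraries of a group differed by more than sampling noise, and each was counted as 1 sample. Some libraries stood apart from the others of their group. Control KPC replicate 1 had 5.112% of its counts on Rn18s-rs5, a ribosomal RNA gene, against 0.141 to 0.547% in the other libraries. By chi-square per degree of freedom it differed from the other control KPC libraries by 99.03 and 143.01, against 23.05 between those others. Irradiated MB49 replicate 3 differed from the other irradiated MB49 libraries by 48.4 and 36.57, against 9.68 between those others. Control MB49 replicate 3 differed from the other control MB49 libraries by a chi-square per degree of freedom of 53.68 and 54.44, against 14.83 between those others. It also held transcripts they lacked or nearly lacked, with 86 counts of Epcam, 27 of Krt20 and 17 of Lum, against 0 in both others, and 62 counts of Cdh1, against 2 in each. Without control MB49 replicate 3, or without irradiated MB49 replicate 3, the calls on the members were the same in all 5 comparisons. Without control KPC replicate 1 they were the same in 4, and between the control cells Tgtp1 was lost, which left 5 in place of 6.

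All 7 members were higher after 8 Gy in KPC cells, and all 7 were higher after 8 Gy in MB49 cells. A gene was called at an adjusted p under 0.05, from quasi-likelihood tests in edgeR adjusted by Benjamini and Hochberg's method across every gene tested. By that rule 63.3% of all genes were called in KPC (31.3% higher, 32% lower) and 66.9% in MB49 (35.3% higher, 31.6% lower). This balance depends on the scaling: by library totals alone 3086 genes were higher and 6620 lower in KPC, against 4490 and 4596 in the main scaling, and 3821 were higher and 5850 lower in MB49, against 5066 and 4540. The median log2 fold change of the members was 6.92 in KPC, where the median of all genes was -0.01. In MB49 it was 9.2 with 2 members set at their lower bound, and the median of all genes was 0.04. Levels are given as CPM, counts relative to library size after scaling between libraries, and log2 fold changes with approximate standard errors. The RNA is from bulk cultures, so a rise in every cell and a rise in some of the cells cannot be told apart.

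Igtp, the most abundant member after irradiation, had 2127, 2132 and 1932 CPM in KPC cells after 8 Gy, against 18.5, 14.3 and 18.3 CPM in control KPC cells. In MB49 cells it had 303, 292 and 302 CPM after 8 Gy, against 0.254, 0.330 and 0.260 CPM in controls. The irradiated libraries of each line stood close together and far above their controls. The log2 fold change was 6.92 ± 0.16 in KPC (adjusted p = 2.17e-15) and 10.02 ± 0.20 in MB49 (adjusted p = 1.43e-15, edgeR). The MB49 controls held 22 counts in all. From the summed counts the MB49 ratio was 1058, with a 95% counting interval of 699 to 1689. The ± 0.20 is narrower than this interval would give. Ranked by fold change among all genes tested, Igtp was in place 98 in KPC and in place 9 in MB49. Per kilobase of gene length its mean level placed it at rank 95 of 14362 in irradiated KPC cells and 5989 in control KPC cells. In MB49 cells its rank was 590 after irradiation and 12861 in controls.

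Irgm1, the regulator best known for its part in resistance to mycobacteria and in autophagy, had the smallest fold change of the family in both lines and the highest control level. It had 385, 408 and 326 CPM in irradiated KPC cells, against 23.5, 28.2 and 30.1 CPM in control KPC cells. MB49 cells had 117, 114 and 139 CPM after 8 Gy, against 2.29, 2.78 and 3.25 CPM in controls. The lowest irradiated library was thus well above the highest control of its line. The log2 fold change was 3.77 ± 0.15 in KPC (adjusted p = 1.24e-12) and 5.48 ± 0.17 in MB49 (adjusted p = 1.17e-13, edgeR).

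Irgm2, the third regulator, had 427, 408 and 438 CPM in irradiated KPC cells, against 14.5, 14.8 and 16.3 CPM in control KPC cells. In MB49 it had 103, 95.6 and 101 CPM after 8 Gy, against 1.23, 1.54 and 0.867 CPM in controls. Its libraries agreed closely within each group, the widest spread being that of the MB49 controls, which held 96 counts in all. The log2 fold change was 4.81 ± 0.14 in KPC (adjusted p = 2.51e-14) and 6.34 ± 0.17 in MB49 (adjusted p = 1.67e-14, edgeR).

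The effectors started lower. Iigp1, the effector whose crystal structure made it the model of the family, had 91.3, 129 and 86.7 CPM in irradiated KPC cells, against 0.0416, 0.0374 and 0.245 CPM in control KPC cells. In MB49 it had 27.4, 25 and 42.4 CPM after 8 Gy, against 0, 0 and 0.0867 CPM in controls. The controls of both lines were close to the limit of detection, with 8 counts over the KPC controls and 2 over the MB49 controls. From the summed counts the ratio of 8 Gy to control was 980 in KPC, with a 95% interval of 497 to 2272, and 1244 in MB49, with an interval of 344 to 10280. These intervals cover counting error only. Both counts in MB49 controls were in replicate 3, without which the fitted log2 fold change in MB49 was 12.49 in place of 9.98, and without control KPC replicate 3, with 6 of the 8 counts, that in KPC was 11.15 in place of 9.84. The call was made in both lines, with adjusted p = 5.08e-11 in KPC and 2.87e-10 in MB49 (edgeR).

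Tgtp1 and Tgtp2 are neighbouring, near-identical copies that both encode Irgb6, an effector that binds phospholipids of the vacuole membrane. Tgtp1 had 597, 681 and 549 CPM in irradiated KPC cells, against 0.258, 0.0539 and 0.123 CPM in control KPC cells. Irradiated MB49 cells had 13.1, 10.4 and 18.6 CPM of Tgtp1, while the MB49 controls had 0 counts in all 3 libraries. The separation was complete in both lines, and the log2 fold change in KPC was 12.10 ± 0.34 (adjusted p = 4.01e-13, edgeR). That estimate rests on 10.66 control counts and was 12.84 without control KPC replicate 1. Against a floor of 3 counts over the control group, Tgtp1 was at least 367-fold higher after 8 Gy in MB49 (adjusted p = 1.88e-10, edgeR).

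Tgtp2 had 323, 365 and 285 CPM in irradiated KPC cells, against 1.56, 2.00 and 1.92 CPM in control KPC cells, a log2 fold change of 7.45 ± 0.20 (adjusted p = 1.12e-13, edgeR). In irradiated MB49 cells it had 18.3, 21.7 and 27.1 CPM, while the MB49 controls again had 0 counts in all 3 libraries. It was at least 589-fold higher after 8 Gy in MB49 by the same floor (adjusted p = 2.33e-12, edgeR). By these estimated counts Tgtp1 was the lower copy in KPC controls and the higher one in irradiated KPC cells. That order depends on how reads were split between the near-identical copies, and its control side rests on 10.66 counts of Tgtp1.

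Ifi47, an effector of which less is known, had 201, 230 and 195 CPM in irradiated KPC cells, against 5.28, 4.53 and 4.49 CPM in control KPC cells. In MB49 it had 24.4, 25.9 and 27.4 CPM after 8 Gy, against 0.0363, 0 and 0.0434 CPM in controls. It was the effector with the highest level in KPC controls and was all but missing from MB49 controls, which held 2 counts. The log2 fold change in KPC was 5.45 ± 0.15 (adjusted p = 9.37e-15, edgeR). From the counts, the MB49 ratio was 1013, the 95% counting interval running from 280 to 8369 (adjusted p = 2.9e-14, edgeR).

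**Figure D2:**
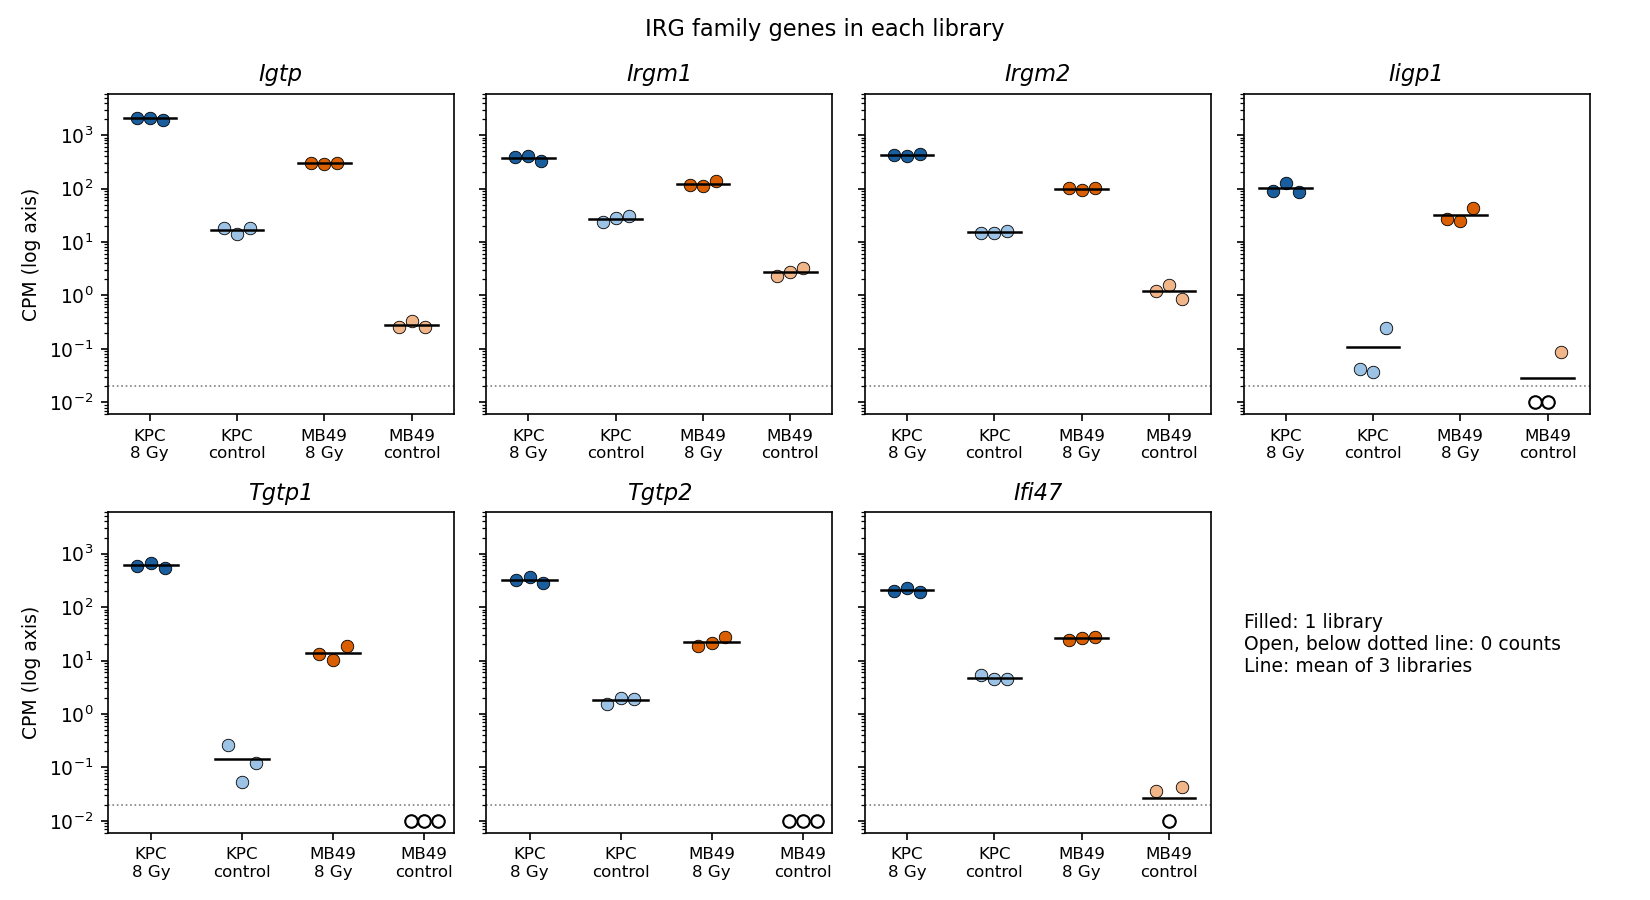
CPM of each member in each of the 12 libraries, on a log axis, with irradiated cells left of the controls of their line and a line at the group mean (n = 3). Open points below the dotted line are libraries with 0 counts, and for every member the irradiated libraries lie above the controls of the same line.

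The fold change after 8 Gy was smaller in KPC than in MB49 for 5 of the 7 members when the difference itself was tested, where 42.9% of all genes passed (20.9% with the larger response in KPC and 22% with the smaller). The difference, KPC minus MB49 on the log2 scale, was -3.10 ± 0.25 for Igtp (adjusted p = 7.85e-08), -1.71 ± 0.21 for Irgm1 (adjusted p = 7.86e-06) and -1.53 ± 0.20 for Irgm2 (adjusted p = 1.66e-05, edgeR). All 3 regulators thus passed in the same direction. The ± 0.25 for Igtp understates the error, as its MB49 controls held 22 counts. Among the effectors, Ifi47 differed by -4.25 ± 0.47 (adjusted p = 2.21e-06, edgeR), a size that rests on 2 counts in MB49 controls and was -2.41 with a prior count of 2. Tgtp2 passed with adjusted p = 0.00244 (edgeR). Its fitted size depends on how the 0 counts of the MB49 controls are treated, but its lower bound in MB49, 9.2 on the log2 scale, was above its estimate in KPC, 7.45. Iigp1 differed by -0.15 ± 0.67 (adjusted p = 0.898), an error wide enough to hold a severalfold difference either way. Tgtp1 did not pass (adjusted p = 0.684, edgeR), and its MB49 lower bound, 8.52 on the log2 scale, lies under its estimate in KPC, 12.10, so the order of the lines is not settled for it.

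**Figure D3:**
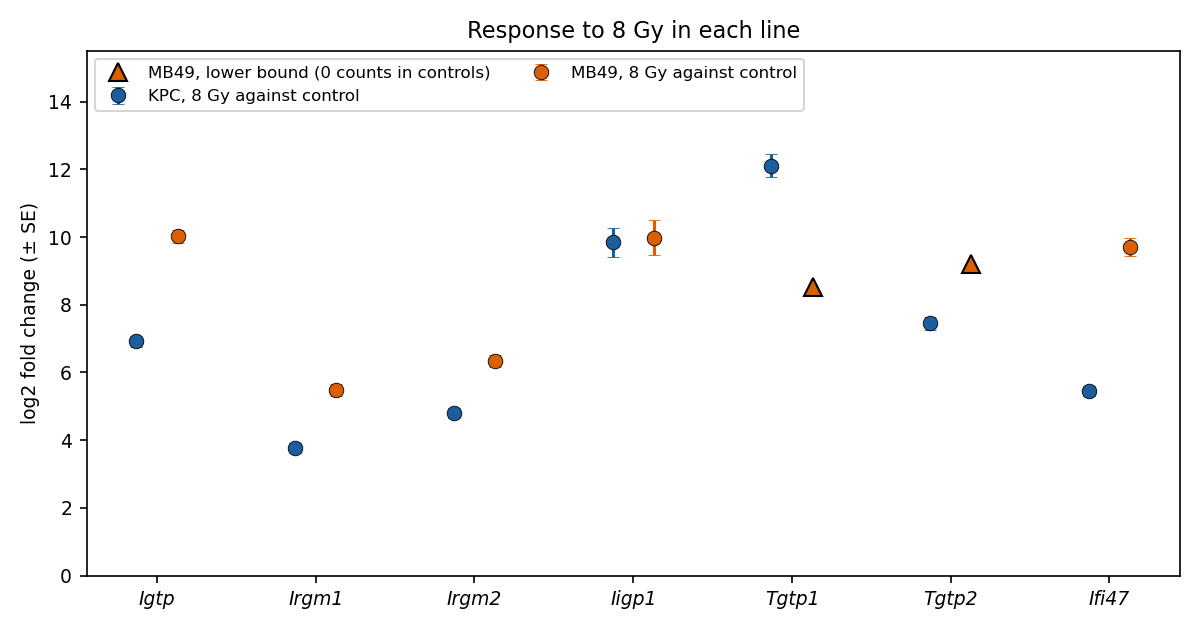
Log2 fold change of 8 Gy over control (± SE) for each member, KPC (blue) left of MB49 (orange), from 3 against 3 libraries in each line. The bars are approximate and understate the error where controls held few counts. This applies to Iigp1 in both lines, Ifi47 and Igtp in MB49, and Tgtp1 in KPC. Triangles are lower bounds for Tgtp1 and Tgtp2 in MB49, whose controls had 0 counts, and Igtp, Irgm1, Irgm2, Tgtp2 and Ifi47 lie higher in MB49.

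The control cells of the lines differed in the family before any dose was given. Control KPC cells were higher than control MB49 cells for 6 of 7 members, in a comparison where 67.3% of all genes were called (33% higher, 34.4% lower). Tgtp1, which is among the 6, and Iigp1 entered this comparison only through their counts in irradiated libraries. With the control groups alone in the fit, neither passed the filter. The log2 difference was 5.89 ± 0.20 for Igtp (adjusted p = 5.43e-14), 3.30 ± 0.17 for Irgm1 (adjusted p = 1.01e-11) and 3.62 ± 0.16 for Irgm2 (adjusted p = 2.21e-12, edgeR). Each regulator was therefore roughly an order of magnitude or more above MB49 in unirradiated KPC cells. For Igtp, with 22 counts over the MB49 controls, the ratio was 60.1, with a 95% counting interval of 39.5 to 96.2. Ifi47 held 358 counts over the KPC controls and 2 over the MB49 controls, a ratio of 185 (95% counting interval 50.9 to 1535) (adjusted p = 2.42e-12, edgeR). Tgtp2 was at least 47.7-fold higher in KPC controls (adjusted p = 1.14e-08, edgeR). The call on Tgtp1 rested on 10.66 estimated counts in KPC and 0 in MB49 (adjusted p = 0.0122, edgeR). Without control KPC replicate 1, which held most of those counts, its adjusted p was 0.0804 (edgeR). Against the floor of 3 counts Tgtp1 was 3.68-fold higher, a value that leaves out the counting error of the 10.66. Iigp1 was not called (adjusted p = 0.229), and its control libraries overlapped between the lines.

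After irradiation KPC cells were above MB49 cells for all 7 members, where 64.4% of all genes were called (31% higher, 33.4% lower). The largest log2 differences belonged to the Tgtp copies, 5.44 ± 0.22 for Tgtp1 (adjusted p = 1.41e-11) and 3.85 ± 0.16 for Tgtp2 (adjusted p = 9.26e-12, edgeR). Ifi47 stood 3.01 ± 0.13 higher and Igtp 2.79 ± 0.13 higher. The smallest differences were those of Irgm2, 2.09 ± 0.12, Iigp1, 1.69 ± 0.24, and Irgm1, 1.60 ± 0.14. For Ifi47, Igtp, Irgm2, Iigp1 and Irgm1 the adjusted p lay between 1.32e-12 and 1.75e-05 (edgeR). The gap between the lines was narrower in irradiated than in control cells for the same 5 members whose responses differed, which is the same test read the other way. Summed over the family, the level was 4106 ± 274 CPM in irradiated KPC cells, 66.3 ± 4.39 CPM in control KPC cells, 616 ± 37.2 CPM in irradiated MB49 cells and 4.32 ± 0.45 CPM in control MB49 cells (SD, n = 3 each). The family thus took 0.316 to 0.381% of all counts in irradiated KPC libraries and 0.0524 to 0.0642% in irradiated MB49 libraries.

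**Figure D4:**
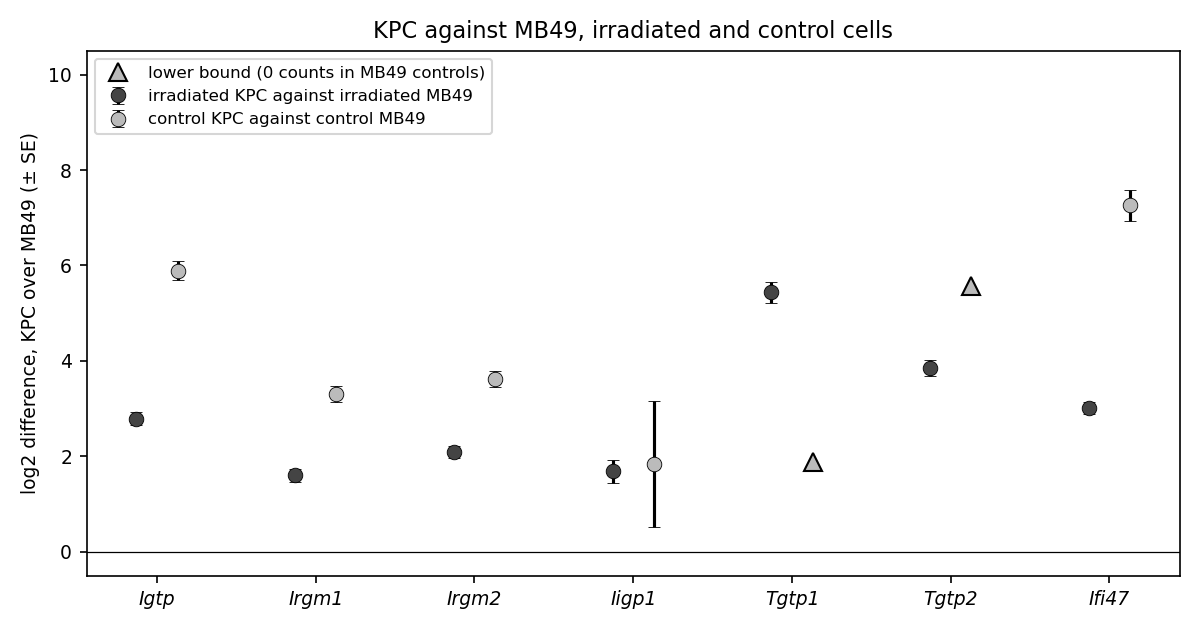
Log2 difference of KPC over MB49 (± SE) for each member, irradiated cells (dark) left of control cells (light), 3 against 3 libraries. The bars are approximate, and those of Igtp and Ifi47 in control cells understate the error, as MB49 controls held few counts. The triangle of Tgtp1 leaves out the counting error of its 10.66 counts in KPC controls. All values lie above 0, triangles are lower bounds where MB49 controls had 0 counts, and for Igtp, Irgm1, Irgm2, Tgtp2 and Ifi47 the irradiated difference is the smaller.

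Members can be ranked within a group once counts are divided by gene length. The places of Tgtp1 and Tgtp2 depend on how reads were split between these copies. In irradiated KPC cells Igtp led with 1021 ± 56.4 CPM per kilobase (SD, n = 3), followed by Tgtp1 with 216 and Irgm1 with 165. Ifi47, Irgm2 and Tgtp2, at 124, 120 and 115 CPM per kilobase, had overlapping libraries, and Iigp1 was lowest with 32.8. In control KPC cells the order was Irgm1 with 12.1 CPM per kilobase, Igtp with 8.43, Irgm2 with 4.30, Ifi47 with 2.84 and Tgtp2 with 0.651. Tgtp1 and Iigp1 came last and overlapped. In irradiated MB49 cells the order was Igtp with 148 CPM per kilobase, Irgm1 with 54.7, Irgm2 with 28.3 and Ifi47 with 15.4. Iigp1, Tgtp2 and Tgtp1 followed at 10.1, 7.97 and 4.97, neighbours in that order overlapping. In control MB49 cells Irgm1 led with 1.23 CPM per kilobase, before Irgm2 with 0.344 and Igtp with 0.139, and the 4 effectors were at or near 0. Irgm1 was the leading transcript of the family in the controls of both lines and Igtp in the irradiated cells of both.

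This change of order showed in the makeup of the family. Per kilobase, Igtp made up 56.9 ± 1.25% of the family in irradiated KPC cells and 29.7 ± 3.68% in control KPC cells. In MB49 its share was 55 ± 2.42% after irradiation and 8.04 ± 1.04% in controls (SD, n = 3 each). Irgm1 moved the other way, with 9.19 ± 0.440% in irradiated KPC cells and 42.5 ± 4.14% in control KPC cells, and with 20.3 ± 1.16% in irradiated MB49 cells and 70.5 ± 5.72% in control MB49 cells. The 3 regulators together held 72.8 ± 1.53% of the family in irradiated KPC cells, against 87.4 ± 1.21% in control KPC cells, a difference of -14.5 percentage points. In MB49 they held 85.8 ± 1.69% after irradiation, against 98.6 ± 1.44% in controls, a difference of -12.8 points. The libraries of the groups did not overlap in either line, and the exact 2-sided permutation test gave p = 0.1 for each, the smallest that 3 against 3 libraries allow. Irradiated KPC cells were 12.9 points under irradiated MB49 cells (difference -12.9), and control KPC cells differed from control MB49 cells by -11.2 points, again with exact p = 0.1.

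**Figure D5:**
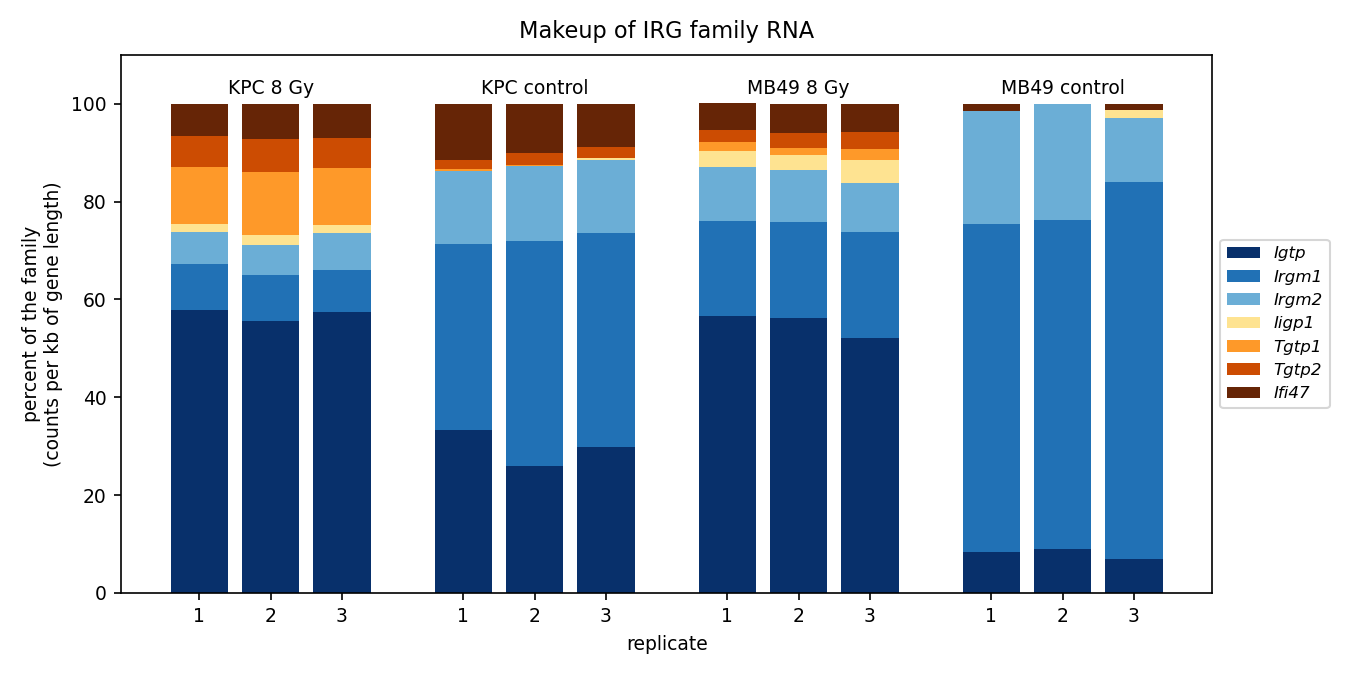
Share of each member in the family in each library, in percent of counts per kilobase of gene length, regulators in blue and effectors in yellow to brown. Igtp fills over 50% of the family in irradiated libraries of both lines, Irgm1 is the largest part in each control library, and Tgtp1 is visible mainly in irradiated KPC cells.

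Part of the family shares sequence, which limits how far single members can be told apart. In the transcripts of GENCODE vM21, 79.4% of 50-base windows of Tgtp1 also occur in Tgtp2, and 85.8% of those of Tgtp2 occur in Tgtp1. Igtp and Irgm2 shared 11.8% of the windows of Igtp, and one gene model of each overlaps the other on the same strand. No other pair of members shared such a window. The deposited values of Tgtp1 and Tgtp2 were not whole numbers in 9 of 12 libraries, and their sum was whole in 8 of those 9. For Igtp and Irgm2 values were not whole in 7 libraries, and the sum was whole in all 7. Gene models of Tgtp1, Tgtp2 and Ifi47 also overlap that of Olfr56, an olfactory receptor gene, and no source used here gives whether counting used strand.

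With the Tgtp copies added together before the test, the log2 fold change was 8.88 ± 0.22 in KPC (adjusted p = 3.36e-14, edgeR). In MB49 the summed pair was called with adjusted p = 1.03e-12, and the difference between the responses with adjusted p = 0.00985 (edgeR). The summed pair thus passed in these 3 tests, which do not depend on how reads were split between the copies. Tgtp1 took 64.9, 65.1 and 65.8% of the pair's counts in irradiated KPC libraries, against 14.2, 2.62 and 6.04% in control KPC libraries. In irradiated MB49 libraries it took 41.6, 32.4 and 40.7%, and MB49 controls had no counts to divide. The share in irradiated KPC libraries was above that in each of the other libraries that had counts of the pair.

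Genes that act upstream of the family, or beside its proteins at the vacuole, were followed as lists. The count of every list stands against 31.3% of all genes higher and 32% lower after 8 Gy in KPC. In MB49 the shares of all genes were 35.3% higher and 31.6% lower. Of 13 tested genes of interferon-gamma signalling and its control, 12 were higher and 0 lower after 8 Gy in KPC (median log2 fold change 1.22), and 10 were higher and 1 lower in MB49 (median 1.03). Irf1, an interferon-induced factor that binds ISRE elements, had 2347 ± 41.2 CPM in irradiated KPC cells and 137 ± 6.44 CPM in control KPC cells, and 1297 ± 128 CPM in irradiated MB49 cells and 153 ± 9.59 CPM in control MB49 cells (SD, n = 3 each). Irf1 differed from the regulators in direction, its response being larger in KPC (difference 1.01 ± 0.16, adjusted p = 1.15e-04), while its control levels were not called different (log2 difference -0.15 ± 0.12, adjusted p = 0.251, edgeR). Socs1, the feedback inhibitor of JAK kinases, rose by a log2 fold change of 5.22 ± 0.31 in KPC (adjusted p = 8.11e-09) and 3.87 ± 0.28 in MB49 (adjusted p = 4.91e-08, edgeR). Batf2, an interferon-induced AP-1 type factor, had log2 fold changes of 10.04 ± 0.30 in KPC (adjusted p = 2.51e-14) and 10.01 ± 0.32 in MB49 (adjusted p = 1.35e-13, edgeR). These sizes are limited by depth, with 20 counts of Batf2 over the KPC controls and 9 over the MB49 controls.

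Of 8 tested genes of type I interferon signalling, 7 were higher and 1 lower in KPC (median log2 fold change 1.37), and 6 were higher and 1 lower in MB49 (median 2.08). Irf3, a factor activated by nucleic acid sensing, was the one that fell in both. Irf7, an amplifier of the type I response, had 1175 ± 51.4 CPM in irradiated KPC cells and 50.9 ± 4.49 CPM in control KPC cells, against 30.6 ± 2.70 CPM in irradiated MB49 cells and 1.06 ± 0.357 CPM in control MB49 cells. Its control difference between the lines was 5.60 ± 0.19 on the log2 scale (adjusted p = 4.6e-14, edgeR), a size near that of Igtp, and its responses to 8 Gy were not called different (adjusted p = 0.262, edgeR). Stat2, a factor of the type I response that acts at ISRE elements, and Usp18, which restrains the type I receptor, were higher in KPC controls, with log2 differences of 2.28 ± 0.14 (adjusted p = 1.81e-10) and 6.86 ± 0.24 (adjusted p = 7.86e-14, edgeR). Transcripts of the interferons themselves were scarce. Ifng had 0 counts in every library, and Ifnb1 had 10 counts over the irradiated KPC libraries, 1 over the control KPC libraries, 1 over the irradiated MB49 libraries and 0 over the control MB49 libraries, too few to be tested.

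Guanylate-binding proteins, GTPases that act with the IRG effectors at the vacuole, rose throughout. Of 10 tested, 10 were higher in KPC (median log2 fold change 8.82) and 10 in MB49 (median 7.85). Gbp2 had 4659 ± 415 CPM in irradiated KPC cells and 6.78 ± 0.569 CPM in control KPC cells, and 2525 ± 138 CPM in irradiated MB49 cells and 5.26 ± 1.08 CPM in control MB49 cells. Its response was not called different between the lines (adjusted p = 0.0585), and Gbp4 had the larger response in KPC (difference 5.40 ± 0.46, adjusted p = 1.15e-07, edgeR). The size for Gbp4 rests on 5 counts over the KPC controls, against 87 over the MB49 controls. Over the 10, the response was larger in KPC for 2 and smaller for 2, near the 20.9% and 22% of all genes. Gbp10 held 12112.48 counts in irradiated KPC cells and 1.23 in control KPC cells, and 851.43 in irradiated MB49 cells and 1 in control MB49 cells (adjusted p = 4.27e-15 in KPC and 1.41e-12 in MB49, edgeR). These copies resemble each other, and their counts may be shared in the same way.

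The proteins of the ATG8 conjugation genes help the effectors reach the vacuole. Of 11 tested, 3 were higher and 3 lower in KPC (median log2 fold change -0.15), where 31.3% of all genes were higher and 32% lower. In MB49 5 were higher and 2 lower (median 0.14), where 35.3% of all genes were higher and 31.6% lower. The counts in KPC were near the shares of all genes and are no trait of the list. Map1lc3b, which encodes an LC3 protein, rose by 0.31 ± 0.11 in KPC (adjusted p = 0.0202) and 1.24 ± 0.11 in MB49 (adjusted p = 3.45e-08, edgeR). Atg7, the activating enzyme, rose by 0.71 ± 0.13 and Gabarap by 0.69 ± 0.17 in KPC (adjusted p = 9.16e-05 and 0.00158), and by 1.23 ± 0.13 and 1.22 ± 0.17 in MB49 (adjusted p = 1.75e-07 and 5.85e-06, edgeR). The 3 that were lower in KPC were Gabarapl1 (-1.11 ± 0.13), Map1lc3a (-0.90 ± 0.21) and Gabarapl2 (-0.70 ± 0.14). In MB49 the 2 that were lower were Atg16l1 (-0.69 ± 0.12) and Atg3 (-0.43 ± 0.15). Of 9 tested genes for ubiquitin and adaptors at the vacuole, 6 were higher and 1 lower in KPC (median 0.60), and 4 were higher and 2 lower in MB49 (median 0.30). Rnf31, a linear ubiquitin ligase subunit, rose by 3.03 ± 0.16 in KPC and 1.92 ± 0.15 in MB49 (adjusted p = 3.92e-11 and 7.8e-09), and Trim21, an antibody-binding ubiquitin ligase, by 2.17 ± 0.19 and 3.02 ± 0.20 (adjusted p = 2.75e-08 and 9.17e-10, edgeR). Ubd, which encodes the ubiquitin-like protein FAT10, had 0 counts in both KPC groups and 110 counts in irradiated MB49 cells, against 2 in control MB49 cells.

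Other IRG-like and large interferon-inducible GTPases were mostly higher after 8 Gy in both lines. Of 11 tested, 10 were higher and 1 lower in KPC (median log2 fold change 5.02), and the same numbers were found in MB49 (median 4.58). The one that fell in both was Irgq, an IRG-like gene of the quasi-GTPase type, with log2 fold changes of -2.69 in KPC and -1.91 in MB49. Gm4841, a predicted gene on that list, had 17.7 ± 1.94 CPM in irradiated KPC cells and 0.0272 ± 0.0471 CPM in control KPC cells, and 12.4 ± 3.97 CPM in irradiated MB49 cells and 0 counts in control MB49 cells. Gm12185, whose promoter window shares the arrangement of motifs with 4 members, held 282.58 counts in irradiated KPC libraries and 2.19 in control KPC libraries, and 74 in irradiated MB49 libraries and 1 in control MB49 libraries (adjusted p = 5.45e-09 in KPC and 4.67e-07 in MB49, edgeR). Mx1, an antiviral dynamin-like GTPase, reached 27.7 ± 1.34 CPM in irradiated KPC cells but only 0.584 ± 0.251 CPM in irradiated MB49 cells, and its response was the larger in KPC (difference 5.14 ± 1.57, adjusted p = 0.0139, edgeR). The size of that difference is limited by depth, with 4 counts over the KPC controls and 3 over the MB49 controls.

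The members' own profiles were alike over the 12 libraries, with Pearson correlations of log2 CPM between 0.8906 and 0.9989 for pairs of members. A constant was added to each CPM before the log. It lies above every MB49 control value of Igtp and the effectors, and so largely sets that end of their profiles. Igtp and Irgm2 were the most alike (r = 0.9989), Irgm1 was nearest to Igtp (0.9963) and Ifi47 to Irgm2 (0.9941). Outside the family, the genes most like the mean profile of the members were Sp140, a chromatin reader of nuclear bodies (r = 0.9989), Zbp1, a sensor of Z-form nucleic acid (0.9988), the class I pseudogene H2-T-ps (0.9956), the ADP-ribosyltransferase Parp14 (0.9948) and the endocytic adaptor Sh3kbp1 (0.9941). These correlations describe libraries that share 4 groups, and most of the spread lies between the groups. Zbp1 had 453 ± 3.02 CPM in irradiated KPC cells and 2.65 ± 0.331 CPM in control KPC cells, and 40.2 ± 1.74 CPM in irradiated MB49 cells and 0 counts in control MB49 cells. Its response was, like that of Igtp, called smaller in KPC (adjusted p = 2.75e-05, edgeR). Sp140 had 188 ± 14.8, 9.14 ± 1.17, 55.1 ± 8.14 and 2.85 ± 0.276 CPM in irradiated KPC, control KPC, irradiated MB49 and control MB49 cells. This is the same order of groups as for each of the 3 regulators. Since Sp140 was picked for its likeness to the members, that order is no separate result. The responses of Sp140 in the lines were not called different (adjusted p = 0.773, edgeR).

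Markers of other cells were measured beside these results. Of 19 immune cell markers, 13 had 0 counts in irradiated KPC cells, 13 in control KPC cells, 7 in irradiated MB49 cells and 8 in control MB49 cells. Ptprc, the pan-leukocyte marker, had 1 count in irradiated MB49 cells and 0 elsewhere. The summed level was 94.5 to 103 CPM in irradiated KPC cells, 35.4 to 36.6 CPM in control KPC cells, 61.5 to 72.5 CPM in irradiated MB49 cells and 58.8 to 63.2 CPM in control MB49 cells, and most of it was Cd14. Of the 4 immune markers with enough counts to be tested, 2 were higher after 8 Gy in each line and 0 lower. Among all genes 31.3% were higher in KPC and 35.3% in MB49. The fibroblast and endothelial markers summed to 54.7 to 64.8 CPM in irradiated KPC cells, 101 to 135 CPM in control KPC cells, 156 to 212 CPM in irradiated MB49 cells and 44.5 to 51.6 CPM in control MB49 cells, led by Pdgfrb in KPC and Dcn in MB49. Epithelial keratin transcripts Krt8 and Krt18 were present in both lines, from 354 to 1824 CPM in group means. The uroplakins Upk1a, Upk1b, Upk2 and Upk3a, which define urothelium, were at or near 0 in both lines. Cdh1 was under 0.1 CPM in 5 of the 6 MB49 libraries and at 2.69 CPM in control MB49 replicate 3. Other genes of that list were present: Gata3 averaged 3.87 CPM in irradiated and 14.2 CPM in control MB49 cells, and 14.6 and 16.3 CPM in KPC cells. Krt7 averaged 7.85 CPM in irradiated and 0.198 CPM in control MB49 cells, and 56.8 and 28.3 CPM in KPC cells. The origin of each line is taken from its label and was not tested with these markers. Pdx1, a pancreatic transcription factor, averaged 21.8 CPM in irradiated KPC cells and 76.7 CPM in control KPC cells, and 2.91 CPM in irradiated MB49 cells and 17.3 CPM in control MB49 cells. The part of these markers in the IRG results was not tested.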

How the data were processed

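RNA was extracted and libraries were made with a stranded mRNA kit, per the labels' protocols. The submitters' processing notes name fastp, HISAT2, StringTie and the build GRCm39, without versions or order. The authors deposited unscaled estimated counts for each gene, of which 6.2 to 8.7% per library were not whole (Tgtp1 and Tgtp2, and Igtp and Irgm2, may share reads). The counting tool and strand setting are not given in the sources used here. Groups came from the sample labels.

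Counts were rounded, genes were filtered with edgeR's filterByExpr (14362 kept, 42818 removed), and scaling used TMM factors (0.829 to 1.18). Of 57180 rows, 525 had no symbol and stayed in the library sizes. All 12 libraries entered a robust quasi-likelihood fit, 1 coefficient for each group (8 residual degrees of freedom, common biological coefficient of variation 0.15). Tests were 2-sided, with Benjamini-Hochberg adjustment over all genes tested. Standard errors are approximate, the absolute log2 value divided by the root of F. They can be smaller than the counting error where a group held few counts. The gene length used for CPM per kilobase is the deposited one. For lower bounds a group with 0 counts was given a floor of 3 counts over the group. The counting error of the other group does not enter these bounds. The 95% intervals cover counting error only. The steps were checked on simulated data. Software was edgeR 4.0.16 and DESeq2 1.42.0 in R 4.3.3. RefSeq promoters (GRCm38.p6) and GENCODE vM21 are of an earlier build than the counts and were used for sequence and for which gene models overlap.

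The members, the gene lists, the rule for naming list genes (up to 3 with the largest called change per list, and Ifng, Ifnb1 and Irf1) and the rule for the 5 most alike genes were chosen with earlier results of these data known. Irgq, Irf3, the ATG8 conjugation genes named as lower and the marker genes named singly were chosen after their values were seen. One further gene that the rule names is not reported here. Alternatives were another scaling, library totals, DESeq2, no filter, fewer groups, a replicate block, unrounded counts, the Tgtp copies summed, another prior count and each library left out.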

Additional observations from a re-analysis of the deposited data

Results flagged for a closer look

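The 8 Gy response of 5 members differed between the lines in a test of the difference itself, fitted across all genes with edgeR over 3 libraries in each of 4 groups. On the log2 scale, KPC minus MB49, the difference was -3.1 for Igtp, -1.71 for Irgm1, -1.53 for Irgm2, -4.54 for Tgtp2 and -4.25 for Ifi47. The sizes for Tgtp2 and Ifi47 depend on how the 0 and 2 counts in MB49 controls are treated, and were -0.61 and -2.41 with a prior count of 2. For each of the 5, control KPC cells stood above control MB49 cells, and irradiated KPC cells stood above irradiated MB49 cells.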

How the results depend on the processing

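The number of members called was within 1.5 times its main value in each alternative run, in all 5 comparisons. The share of the 3 regulators moved by more than the spread between replicates in 7 of 8 alternatives and stayed negative in each, some of the moves towards 0 and some away from it. With Tgtp2 left out of the family it differed by -11.6 points between 8 Gy and control in KPC, -10.2 in MB49, -9.16 between KPC and MB49 controls and -10.5 between the irradiated lines. With no length scaling the values were -19.9 in KPC, -9.08 between controls and -15.1 between the irradiated lines. Leaving out each library in turn gave -15.1 to -13.6 in KPC, -13.5 to -11.8 in MB49, -11.9 to -10.5 between controls and -13.9 to -12.1 between irradiated lines. Of the members' single results, 1 lost its call, Tgtp1 between the controls without control KPC replicate 1 (adjusted p = 0.0804 in edgeR, against 0.000663 to 0.0307 in its other alternatives). Same-numbered libraries of different groups did not deviate together (correlations -0.423 to 0.389), and with the replicate block 7 members were called in KPC, 7 in MB49, 5 for the difference, 6 between controls and 7 between irradiated lines. Scaling by library totals moved the median of all genes by -0.38 in KPC, -0.28 in MB49 and -0.13 between irradiated lines on the log2 scale, and no member changed direction. With only the groups compared in the fit, Tgtp1 and Iigp1 did not pass the filter between controls and 5 members were called. At 2 to 8 counts over a control group, Iigp1 and Ifi47 in MB49 and Iigp1 in KPC have fold changes limited by depth. The same holds for Tgtp1 in KPC at 10.66 counts and, to a lesser degree, for Igtp in MB49 at 22. The difference for Iigp1 ran from -2.65 to 1.17 as single libraries were left out.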
